A study of Homo sapiens with 14 samples.

Results

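DKK1 and a set of genes that act in, or are commonly switched on by, WNT signalling were examined in CWR22Rv1 cells, an established human prostate cancer cell line. The 10 genes were chosen by name: DKK1, DKK3, AXIN2, LEF1, TCF7, RNF43, ZNRF3, NKD1, LGR4 and LRP6, out of 27819 genes shared by the 4 count tables. The cells were held for 72 h in DMSO, the solvent control (3 libraries), 30 µM Fucotrim I (3 libraries), 60 µM Fucotrim II (2 libraries), 100 µM SGN-2FF (3 libraries) or 2 µM P-SiaFNEtoc (3 libraries). The Fucotrims are rhamnose-1-phosphate derivatives aimed at GMDS, an enzyme of de novo GDP-fucose synthesis, SGN-2FF is 2-fluorofucose, and P-SiaFNEtoc is an inhibitor of sialyltransferases. All treatments share the same 3 DMSO libraries and were made in 1 cell line, so the spread between libraries is that of repeat cultures of that line.

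In the canonical WNT pathway a secreted WNT protein binds a Frizzled receptor together with the coreceptor LRP5 or LRP6. The complex of AXIN, APC and GSK3 then no longer sends beta-catenin for degradation, and beta-catenin enters the nucleus to work with factors of the TCF/LEF family. Several of the genes switched on in this way hold the pathway back, among them AXIN2, RNF43, ZNRF3, NKD1 and, in many cells, DKK1, which is why they are called feedback genes. DKK1 is also secreted by prostate cancers and has been studied in their bone metastases.

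The libraries held 12553094 to 19981453 counts. Levels are given in CPM, the count scaled to a common library size. Luminal prostate and epithelial markers were present, with KLK3 at 27.5 to 79.2 CPM, KRT8 at 456 to 827 CPM and EPCAM at 85.5 to 106 CPM over the 14 libraries, while PTPRC, PECAM1, COL1A2, KRT5 and TP63 were at most 0.379 CPM, and the fibroblast collagen COL1A1 was at 15.9 to 29.2 CPM. Mitochondrially encoded genes took 5.98% to 7.03% of the counts in DMSO, 8.67% to 14.2% with Fucotrim I, 12.2% to 17.0% with Fucotrim II, 8.27% to 8.69% with SGN-2FF and 6.11% to 6.83% with P-SiaFNEtoc. This share was therefore above DMSO with both Fucotrims and with SGN-2FF. No call of the 8 members tested changed when the mitochondrially encoded genes were left out. That run speaks only to how the other genes were scaled, and why the share was higher was not tested. In bulk RNA, fewer cells of a type and less RNA per cell cannot be told apart.

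DKK1 lies on the plus strand of chromosome 10 (hg38, chr10:52314281-52318042), and it was the member whose level moved most with both Fucotrims. The 250 bases before its start are shown because DKK1 carried the largest change of the set and because this window held a match to a TCF/LEF motif. They are set beside the window before a second annotated start of RNF43. RNF43 is the other member that was called in 3 comparisons with DMSO and has a window free of its own exons. Both sequences are from RefSeq (GRCh38.p14), read 5′ to 3′ on the strand of the gene, and capitals mark a match to CTTTGAT or CTTTGTT on either strand.
DKK1, chr10:52314031-52314280, plus strand: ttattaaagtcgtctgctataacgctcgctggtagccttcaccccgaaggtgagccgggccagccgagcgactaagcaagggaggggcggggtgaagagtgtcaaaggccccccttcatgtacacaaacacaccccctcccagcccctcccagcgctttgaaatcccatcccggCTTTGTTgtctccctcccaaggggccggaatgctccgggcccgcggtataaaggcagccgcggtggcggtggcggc
RNF43 second start, chr17:58402722-58402971, minus strand: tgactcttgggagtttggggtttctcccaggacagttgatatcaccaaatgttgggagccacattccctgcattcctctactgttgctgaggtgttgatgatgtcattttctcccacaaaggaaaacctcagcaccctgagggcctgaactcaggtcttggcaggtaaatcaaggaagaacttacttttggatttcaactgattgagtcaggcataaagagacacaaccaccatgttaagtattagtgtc
The DKK1 window held 1 match, to CTTTGTT on the gene's own strand, with its first base at position -76 from the start. The RNF43 window held 0. Since the DKK1 window was shown partly for its match, the difference between these windows follows from that choice. The same search found CTTTGTT in 4.5%, CTTTGAT in 2.26% and either motif in 6.6% of the 250-base windows before 35116 starts. LEF1, TCF7 and LGR4 also have entries in the promoter table used. The only other match in the windows of these genes was CTTTGTT on the opposite strand, at position -50 from a second start of TCF7. Only CTTTGAT and CTTTGTT were searched, so near variants of them, such as the ctttgaa in the DKK1 window, are not counted. A match is a string of letters and says nothing of whether a factor binds there.

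Within DMSO, DKK1 had the highest level per length of the 10 genes, followed by LEF1 and RNF43. On the scale of CPM per kilobase of merged exon, DKK1 was at 24.9 ± 1.95 (SD, n = 3), LEF1 at 10.7 ± 0.478 and RNF43 at 7.97 ± 0.364. LRP6 at 4.45 ± 0.223 and ZNRF3 at 4.41 ± 0.230 did not differ beyond their spread. LGR4 was lower at 2.77 ± 0.312, AXIN2 at 1.13 ± 0.097 and TCF7 at 0.623 ± 0.0245. Merged exons take in every annotated transcript of a gene, so this order depends on the length used. In CPM alone, LEF1 (57.2 ± 2.56) and DKK1 (55.4 ± 4.34) did not differ beyond their spread. Nor did TCF7 (6.28 ± 0.248) and AXIN2 (5.87 ± 0.504). DKK3, a secreted glycoprotein related to DKK1 by sequence, and NKD1, which binds Dishevelled, were barely counted, with 0 to 4 and 0 to 3 counts in each of the 14 libraries. Neither passed the filter on low counts in any comparison, so 8 of the 10 members were tested. DKK3 had 0 counts in both Fucotrim II libraries, a count that allows up to 0.17 and 0.18 CPM in these libraries, and no change in it could be detected at this depth. These limits cover counting error alone.

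**Figure D1:**
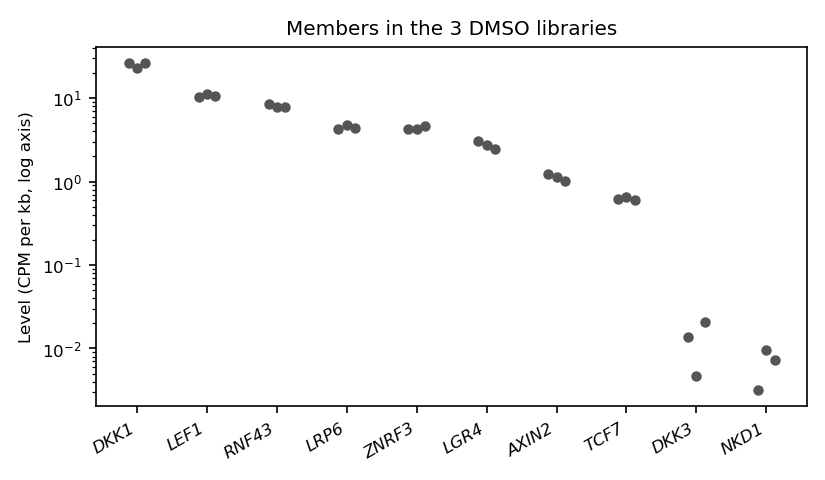
Level of the 10 members in the 3 DMSO libraries, in CPM per kilobase of merged exon length on a log axis, each point 1 library, genes in order of their mean. DKK1 stands highest at a mean of 24.9, and DKK3 and NKD1 lie far below the other 8 members.

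DKK1, a secreted inhibitor that binds LRP6 and keeps it from WNT, fell with both Fucotrims, did not pass the test with SGN-2FF and rose with P-SiaFNEtoc. The 3 DMSO libraries had 58.0, 50.4 and 57.8 CPM. The 3 Fucotrim I libraries had 16.9, 22.4 and 21.3 CPM, and the 2 Fucotrim II libraries 16.7 and 14.99 CPM. The highest of the 5 Fucotrim libraries lay far below the lowest DMSO library. SGN-2FF gave 57.3, 49.7 and 53.9 CPM, inside and just under the DMSO range, whereas P-SiaFNEtoc gave 66.4, 65.2 and 67.0 CPM, all above the highest DMSO library.

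The log2 fold change of DKK1 against DMSO was -1.45 with Fucotrim I (SE 0.0902, adjusted p = 2.77e-10, edgeR quasi-likelihood test with Benjamini-Hochberg adjustment over all genes), which left 36.5% of the DMSO level. With Fucotrim II it was -1.81 (SE 0.101, edgeR adjusted p = 4.80e-06), or 28.5% of the DMSO level. By size of change DKK1 ranked 23 among 3141 genes called lower with Fucotrim I and 32 among 3763 with Fucotrim II. The change with SGN-2FF was -0.04, with a 95% interval of -0.17 to 0.09 (edgeR adjusted p = 0.698), so a fall of the Fucotrims' size lay outside the interval. With P-SiaFNEtoc the level rose by a log2 fold change of 0.26 (95% interval 0.15 to 0.37, edgeR adjusted p = 0.00101), to 120% of DMSO. By array and ELISA the paper reports less DKK-1 protein in medium conditioned by CWR22Rv1 cells treated with P-SiaFNEtoc. That is secreted protein after a further serum-free culture, an unlike measure from RNA of the cells, and is not analysed here. Without the mitochondrially encoded genes the values for DKK1 were -1.45, -1.80, -0.04 and 0.26 for Fucotrim I, Fucotrim II, SGN-2FF and P-SiaFNEtoc. In the annotation used for lengths, 10.2% of the DKK1 exon bases lie opposite the antisense RNA PRKG1-AS1, and the strand setting of the counting is not given in the sources used here.

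**Figure D2:**
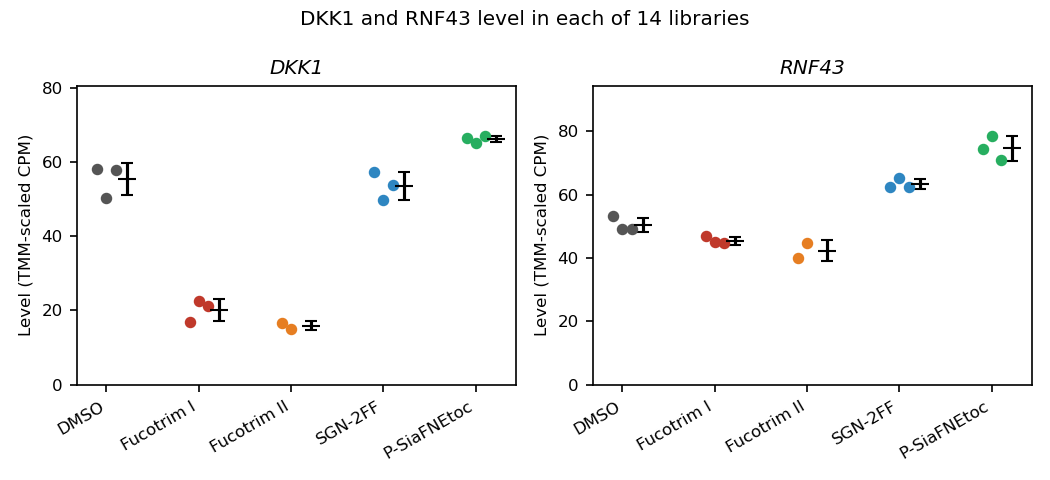
Level of DKK1 (left) and RNF43 (right) in CPM after TMM scaling, by treatment; coloured points are single libraries and black bars the mean ± SD. DKK1 is at 14.99 to 22.4 CPM in the 5 Fucotrim libraries against 50.4 to 58.0 CPM in DMSO, and RNF43 is above its DMSO libraries with SGN-2FF and P-SiaFNEtoc.

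Of the 8 members tested, 1 rose and 2 fell with Fucotrim I, 0 rose and 5 fell with Fucotrim II, 1 rose and 1 fell with SGN-2FF, and 2 rose and 1 fell with P-SiaFNEtoc. Over all genes tested, 21.6% rose and 22.1% fell with Fucotrim I, and 25.6% rose and 25.7% fell with Fucotrim II. The shares were 11.5% and 9.08% with SGN-2FF, and 9.02% and 7.33% with P-SiaFNEtoc. The median log2 fold change of the tested members was -0.10, -0.26, -0.04 and 0.07 for Fucotrim I, Fucotrim II, SGN-2FF and P-SiaFNEtoc, beside medians of 0.00 to 0.01 over all genes. The Fucotrim II count went from 5 to 3 without DMSO replicate 1 or 2 and to 2 without DMSO replicate 3. The SGN-2FF count went from 2 to 1 without DMSO replicate 3 or SGN-2FF replicate 2 or 3. Treated and DMSO libraries did not overlap for 5, 6, 3 and 4 of the 8 members in the same order, where 52.6%, 67.6%, 36.4% and 33.7% of all genes did not overlap.

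**Figure D3:**
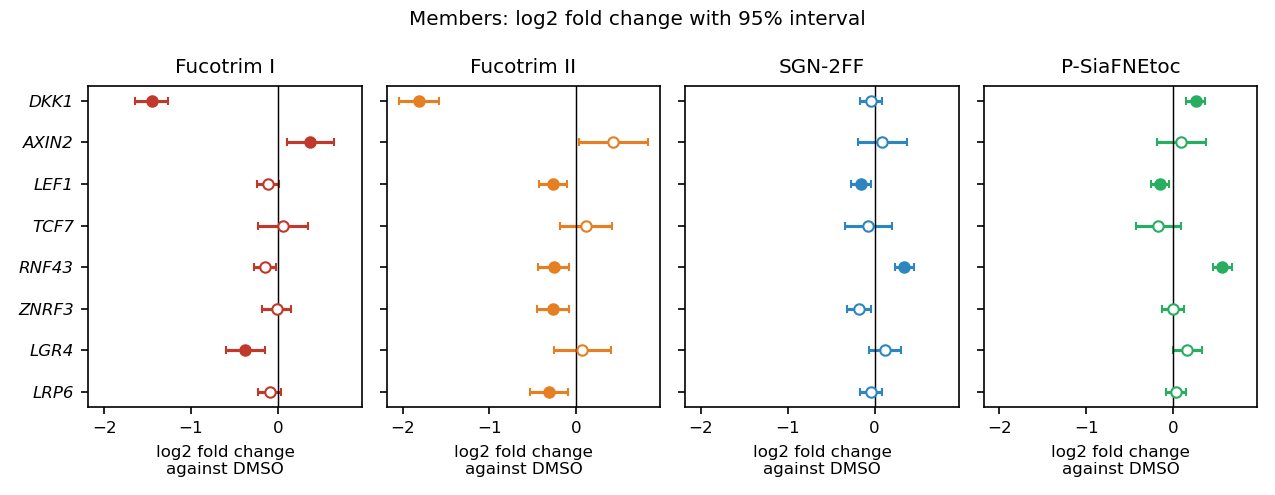
Log2 fold change against DMSO of the 8 members tested, 1 panel per inhibitor, with bars for the 95% interval; filled points passed an adjusted p of 0.05 and open points did not. DKK1 stands apart on the left with both Fucotrims, and RNF43 on the right with SGN-2FF and P-SiaFNEtoc.

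RNF43 and ZNRF3 are membrane E3 ubiquitin ligases that remove Frizzled receptors from the cell surface. RNF43 (minus strand, hg38, chr17:58353676-58417595) had 53.1, 49.0 and 49.3 CPM in DMSO. It had 62.4, 65.4 and 62.5 CPM with SGN-2FF, and 74.6, 78.6 and 70.8 CPM with P-SiaFNEtoc, and none of these 6 libraries overlapped DMSO. The rise was 0.34 on the log2 scale with SGN-2FF (SE 0.0534, edgeR adjusted p = 3.32e-05) and 0.57 with P-SiaFNEtoc (SE 0.0526, edgeR adjusted p = 3.53e-09). Both Fucotrims gave values below DMSO. Fucotrim I gave 47.0, 44.9 and 44.6 CPM and a log2 fold change of -0.15 that did not pass (edgeR adjusted p = 0.0682), and Fucotrim II gave 40.1 and 44.7 CPM. The log2 fold change with Fucotrim II was -0.26 (edgeR adjusted p = 0.0215), and it no longer passed when DMSO replicate 1 (adjusted p = 0.0993), DMSO replicate 3 (0.0569) or Fucotrim II replicate 1 (0.055) was left out of the edgeR fit. A same-strand readthrough model without a symbol covers 68.4% of the RNF43 exon bases in GENCODE, the annotation used here for lengths. The deposited counts carry NCBI gene identifiers, and whether the annotation used for counting holds that model is not known. If it does, reads of the 2 models cannot be told apart there.

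ZNRF3 (plus strand, hg38, chr22:28883572-29057488) had 30.2, 29.6 and 32.6 CPM in DMSO and 25.4 and 26.0 CPM with Fucotrim II, a log2 fold change of -0.27 (SE 0.0828, edgeR adjusted p = 0.0221). It lost the call without DMSO replicate 1 (edgeR adjusted p = 0.0555) or DMSO replicate 3 (0.0882), and with DESeq2 (0.0706). With SGN-2FF it had 25.7, 27.6 and 27.7 CPM, also below DMSO, but its change of -0.18 did not pass (edgeR adjusted p = 0.0651). Fucotrim I and P-SiaFNEtoc gave -0.01 and 0.00, with intervals of -0.18 to 0.15 and -0.13 to 0.13.

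AXIN2, a scaffold of the destruction complex and a widely used readout of WNT activity, lies on the minus strand (hg38, chr17:65528563-65561648). It had 6.32, 5.95 and 5.33 CPM in DMSO. Fucotrim I gave 7.03, 7.77 and 8.12 CPM and Fucotrim II 9.38 and 6.50 CPM, all above DMSO. The rise of 0.38 on the log2 scale passed with Fucotrim I (SE 0.132, edgeR adjusted p = 0.0249). The Fucotrim II value of 0.43 did not (SE 0.178, edgeR adjusted p = 0.0698). The Fucotrim I call was lost without DMSO replicate 2 (edgeR adjusted p = 0.0517), DMSO replicate 3 (0.109), Fucotrim I replicate 2 (0.0605) or Fucotrim I replicate 3 (0.0823), with DESeq2 (0.0797) and in a single edgeR fit of all 14 libraries (0.0618). With Fucotrim II, AXIN2 passed without replicate 2 of that group, at 0.66 (edgeR adjusted p = 0.00181), where the 1 library left is assumed to vary like DMSO. It also passed in the single fit of 14 libraries, at 0.43 (edgeR adjusted p = 0.0345). SGN-2FF and P-SiaFNEtoc gave 0.09 and 0.10, with 95% intervals of -0.19 to 0.37 and -0.19 to 0.38. A GENCODE readthrough model covers 25.3% of the AXIN2 exon bases on the same strand, and here too it is not known whether the counting used it.

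LEF1 and TCF7 are DNA-binding factors that recruit beta-catenin to target genes. LEF1 (minus strand, hg38, chr4:108047545-108168956) had 55.1, 60.1 and 56.5 CPM in DMSO and lay below that in all 11 treated libraries, whose levels ran from 46.6 to 53.9 CPM. Its log2 fold change was -0.12 with Fucotrim I (edgeR adjusted p = 0.131), -0.27 with Fucotrim II (0.0124), -0.16 with SGN-2FF (0.0443) and -0.15 with P-SiaFNEtoc (0.0444). The last 3 passed the threshold. The SGN-2FF call ended without DMSO replicate 2 (edgeR adjusted p = 0.156), DMSO replicate 3 (0.0776), or SGN-2FF replicate 2 (0.160) or 3 (0.121), with DESeq2 (0.106), with limma-voom (0.0511) and in the single fit of 14 libraries (0.0591). The P-SiaFNEtoc call ended without DMSO replicate 2 (0.198) or 3 (0.0805) or without any single P-SiaFNEtoc library (0.0687 to 0.112). It also ended with DESeq2 (0.113), with limma-voom (0.0505) and in the single fit (0.105). The Fucotrim II call ended without DMSO replicate 2 (edgeR adjusted p = 0.0523). TCF7 (plus strand, hg38, chr5:134114681-134151865) passed in no comparison. Its levels ran from 5.24 to 7.67 CPM over the 14 libraries, against 6.08 to 6.56 CPM in DMSO, and its log2 fold changes from -0.17 to 0.11.

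LGR4, a receptor for R-spondins that protect Frizzled from RNF43 and ZNRF3, lies on the minus strand (hg38, chr11:27365961-27472790). It had 19.6, 17.6 and 15.7 CPM in DMSO and 12.1, 15.1 and 13.6 CPM with Fucotrim I, without overlap. Its log2 fold change there was -0.37 (SE 0.107, edgeR adjusted p = 0.00774), and without DMSO replicate 1 the call was lost (-0.29, edgeR adjusted p = 0.0612). Fucotrim II gave 21.6 and 15.7 CPM, of which the first lay above every DMSO library and the second inside the DMSO range. Its change there was 0.07 (95% interval -0.26 to 0.40), and SGN-2FF and P-SiaFNEtoc gave 0.12 and 0.16, none of which passed.

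LRP6, the coreceptor that DKK1 binds (minus strand, hg38, chr12:12116025-12267044), had 44.3, 48.7 and 45.4 CPM in DMSO and 41.0 and 33.7 CPM with Fucotrim II. Its log2 fold change there was -0.31 (SE 0.0973, edgeR adjusted p = 0.0231). The call was lost without DMSO replicate 2 (0.0752), DMSO replicate 3 (0.0543) or Fucotrim II replicate 2, which moved the value to -0.18 (edgeR adjusted p = 0.0687). The other 3 inhibitors gave -0.09, -0.04 and 0.04 for Fucotrim I, SGN-2FF and P-SiaFNEtoc.

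**Figure D4:**
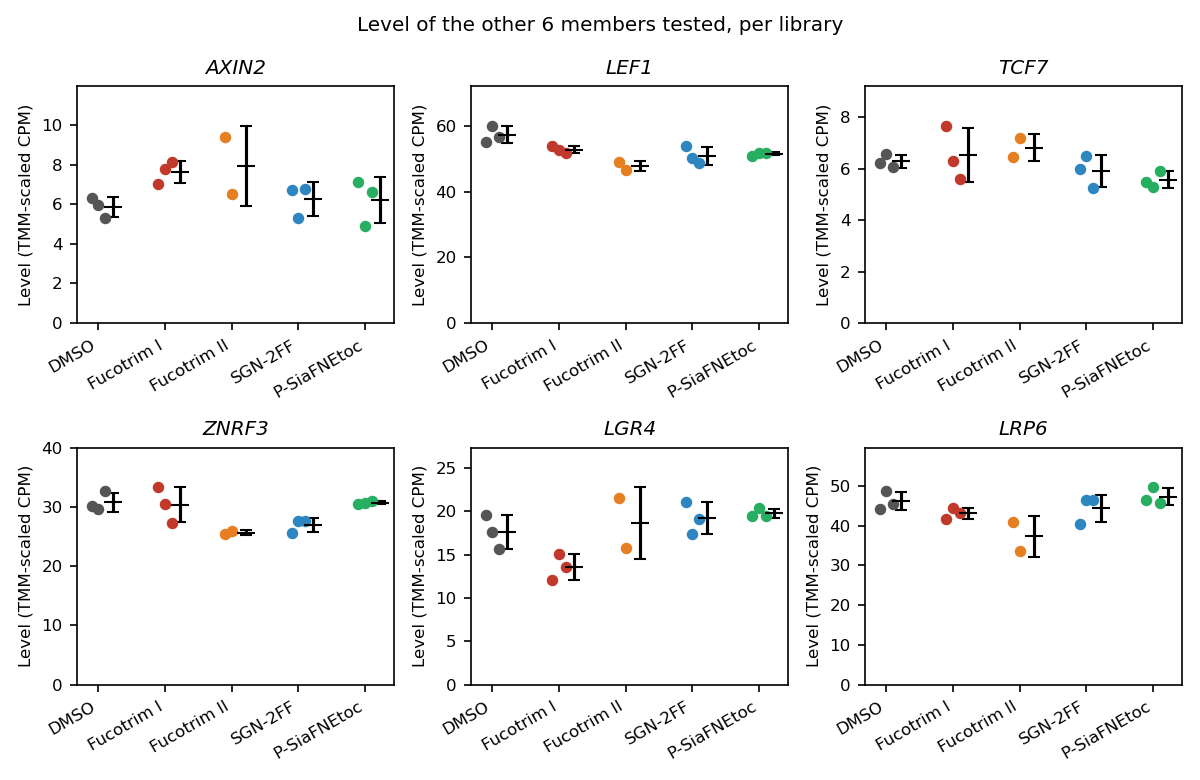
Level in CPM after TMM scaling of the other 6 members tested, by treatment; coloured points are single libraries and black bars the mean ± SD. LEF1 is below its DMSO libraries in all 11 treated libraries, and the 2 Fucotrim II libraries stand apart from each other for AXIN2, LGR4 and LRP6.

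The inhibitors were also set against each other in a fit of all 14 libraries, over 6 pairs, with p-values adjusted over all 14877 genes within each pair. The doses differ between compounds, so these contrasts compare the treatments as given and not equal doses. The fit holds 1 spread per gene for all groups, so it can understate that of the Fucotrims, whose replicates were less alike. For genes averaging 50 counts or more, chi-square per degree of freedom between replicates was 29.03 within Fucotrim II and 6.45 to 20.83 within Fucotrim I. Within DMSO, SGN-2FF and P-SiaFNEtoc it was 1.633 to 4.885. Of the 8 members tested, 3 differed between Fucotrim I and Fucotrim II, where 24.2% of all genes did. The counts were 3 for Fucotrim I against SGN-2FF (22.9% of all genes), 3 for Fucotrim I against P-SiaFNEtoc (31.3%), 3 for Fucotrim II against SGN-2FF (46.3%), 4 for Fucotrim II against P-SiaFNEtoc (50.2%) and 2 for SGN-2FF against P-SiaFNEtoc (3.39%). With only the libraries of the pair, 0 members differed between the Fucotrims. The count between the Fucotrims fell to 1 without Fucotrim I replicate 1 or 2, and to 2 without Fucotrim I replicate 3. Over all runs without 1 library of either Fucotrim, the log2 fold change of LGR4 ran from -0.67 to -0.21. That of DKK1 ran from 0.26 to 0.47 and that of ZNRF3 from 0.18 to 0.31. Some of these runs leave 1 Fucotrim II library, assumed to vary like the other groups. The count between SGN-2FF and P-SiaFNEtoc fell to 1 or 0 without any single library of either group.

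DKK1 was lower with each Fucotrim than with SGN-2FF, by log2 fold changes of -1.41 (SE 0.0892, edgeR adjusted p = 2.54e-10) for Fucotrim I and -1.76 (SE 0.102, edgeR adjusted p = 3.32e-11) for Fucotrim II. Against P-SiaFNEtoc they were -1.71 and -2.06. In the order of levels, Fucotrim II was lowest, followed by Fucotrim I, SGN-2FF, DMSO and P-SiaFNEtoc, and SGN-2FF and DMSO did not differ beyond their spread. Fucotrim I stood above Fucotrim II by 0.35 (95% interval 0.12 to 0.58, edgeR adjusted p = 0.0259). That call was lost without Fucotrim I replicate 2 (edgeR adjusted p = 0.142) or 3 (0.0769), without Fucotrim II replicate 2 (0.164), with limma-voom (0.0522), and with only the 5 libraries of the pair (0.126). SGN-2FF stood below P-SiaFNEtoc by -0.31 (95% interval -0.47 to -0.15, edgeR adjusted p = 0.0281), a call lost without SGN-2FF replicate 2 or 3 (0.197 and 0.0862) or any single P-SiaFNEtoc library (0.0900 to 0.108).

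RNF43 was lower with each Fucotrim than with SGN-2FF, by -0.48 (edgeR adjusted p = 1.01e-05) and -0.58 (6.38e-07) on the log2 scale, and lower than with P-SiaFNEtoc by -0.71 and -0.82. Between SGN-2FF and P-SiaFNEtoc the difference was -0.23 (edgeR adjusted p = 0.0269). This last call was lost without any single SGN-2FF library (0.0742 to 0.108) and without P-SiaFNEtoc replicate 1 (0.0967) or 2 (0.162). LGR4 was lower with Fucotrim I than with SGN-2FF (-0.49, edgeR adjusted p = 0.00530) and P-SiaFNEtoc (-0.54, 0.00134). For RNF43 the 2 Fucotrims gave a difference of 0.10 with a 95% interval of -0.04 to 0.25, and for AXIN2 -0.05 with an interval of -0.40 to 0.30, so differences of these widths remain possible.

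The other genes of the pathway were taken from a list of 108, of which 77 to 83 were tested. With Fucotrim I, 15 of 77 (19.5%) rose and 20 (26.0%) fell, and with Fucotrim II 20 of 83 (24.1%) rose and 17 (20.5%) fell, near the shares over all genes given above. With SGN-2FF 9 of 78 (11.5%) rose and 13 (16.7%) fell, beside 11.5% and 9.08% of all genes. With P-SiaFNEtoc 17 of 79 (21.5%) rose and 5 (6.33%) fell, beside 9.02% and 7.33% of all genes. The median log2 fold change of the list was 0.03 with P-SiaFNEtoc and 0.00, -0.02 and -0.01 with Fucotrim I, Fucotrim II and SGN-2FF. Single libraries moved several of these counts: the falls with Fucotrim I went to 13 without its replicate 3, and the rises with Fucotrim II to 12 and 13 without DMSO replicates 2 and 3. With SGN-2FF the rises went to 5 and the falls to 7 without its replicate 2, and the falls to 8 without DMSO replicate 3. The 5 falls with P-SiaFNEtoc went to between 1 and 3 without DMSO replicate 1 or 3 or any single P-SiaFNEtoc library.

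Among the cytoplasmic relay and destruction complex, 7 of 18 tested genes fell with each Fucotrim, while 2 rose with Fucotrim I and 3 with Fucotrim II. That is 38.9% lower with each, beside 22.1% and 25.7% of all genes, and 11.1% and 16.7% higher, beside 21.6% and 25.6%. With SGN-2FF 0 rose and 3 fell (16.7%), beside 11.5% and 9.08% of all genes. With P-SiaFNEtoc 1 rose (5.56%) and 2 fell (11.1%), beside 9.02% and 7.33%. With 18 genes these shares are a description with no test. CTNNB1, which encodes beta-catenin, was at 385 ± 1.96 CPM in the 3 DMSO libraries (mean ± SD). It was at 309.5 ± 11.2 CPM in the 3 libraries of Fucotrim I and at 285 ± 1.94 CPM in the 2 of Fucotrim II. Its log2 fold changes were -0.31 and -0.44 (edgeR adjusted p = 1.68e-05 and 0.000246). SGN-2FF and P-SiaFNEtoc gave -0.08 and 0.00 for CTNNB1, neither of which passed, and TNKS2, a tankyrase that marks AXIN for degradation, fell with Fucotrim I (-0.23), Fucotrim II (-0.40) and P-SiaFNEtoc (-0.17).

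Of the secreted or surface inhibitors outside the members, WIF1, which binds WNT proteins, fell with Fucotrim I and Fucotrim II (log2 fold changes -0.75 and -0.91), and KREMEN2, a DKK1 receptor, rose (0.50 and 0.81). WIF1 was low, with 3.89 to 5.58 CPM over the DMSO libraries and 2.09 to 3.51 CPM over those of Fucotrim I. Among the receptors, LGR5, a relative of LGR4 known as a stem cell marker, had 6.49, 6.67 and 6.02 CPM in DMSO, 13.1, 13.96 and 15.4 CPM with SGN-2FF and 11.5, 11.2 and 11.6 CPM with P-SiaFNEtoc. Both groups lay above every DMSO library. The log2 fold changes were 1.15 (SE 0.107, edgeR adjusted p = 5.91e-09) and 0.84 (SE 0.106, edgeR adjusted p = 1.09e-06), with 0.36 for Fucotrim I (0.0394) and -0.03 for Fucotrim II (0.878). Of the Frizzled receptor genes, FZD8 fell with Fucotrim I (-0.48), Fucotrim II (-0.43) and SGN-2FF (-0.34). FZD6 fell with Fucotrim I (-0.24), Fucotrim II (-0.39) and P-SiaFNEtoc (-0.18), and FZD7 fell with SGN-2FF (-0.66).

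Of the nuclear factors, the corepressor gene TLE2 rose with Fucotrim I (0.51), Fucotrim II (0.91) and P-SiaFNEtoc (0.29). TCF7L1, a TCF factor known as a repressor, rose with SGN-2FF (0.49), Fucotrim I (0.44) and Fucotrim II (0.52), and TLE1 fell with SGN-2FF (-0.40). Among 15 common target genes tested, 3 rose (20%) and 6 fell (40%) with Fucotrim I, beside 21.6% and 22.1% of all genes. With Fucotrim II 4 rose (26.7%) and 3 fell (20%), beside 25.6% and 25.7%. With SGN-2FF 4 rose (26.7%) and 4 fell (26.7%), beside 11.5% and 9.08%. With P-SiaFNEtoc 6 rose (40%) and 2 fell (13.3%), beside 9.02% and 7.33%. With 15 genes these shares are also a description with no test. CD44, a hyaluronan receptor, rose with all 4 inhibitors, by 0.65, 0.99, 0.47 and 0.39 for Fucotrim I, Fucotrim II, SGN-2FF and P-SiaFNEtoc. ID2, an inhibitor of basic helix-loop-helix factors, fell with Fucotrim I (-0.59), Fucotrim II (-0.60) and SGN-2FF (-0.60). BIRC5, which encodes survivin, fell with all 4 (-0.42, -0.86, -0.19 and -0.13 in the same order). SOX9 fell with the Fucotrims (-0.47 and -0.75) and rose with P-SiaFNEtoc (0.17). EPHB3 rose with SGN-2FF (0.17) and P-SiaFNEtoc (0.36), while JUN rose with Fucotrim II (0.58) and fell with P-SiaFNEtoc (-0.24). MYC rose with Fucotrim II (0.23), SGN-2FF (0.32) and P-SiaFNEtoc (0.20), and had a log2 fold change of 0.10 with Fucotrim I that did not pass. CCND1, which encodes cyclin D1, fell with Fucotrim I (-0.14) and SGN-2FF (-0.23) and did not pass with Fucotrim II (-0.16) or P-SiaFNEtoc (-0.03).

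**Figure D5:**
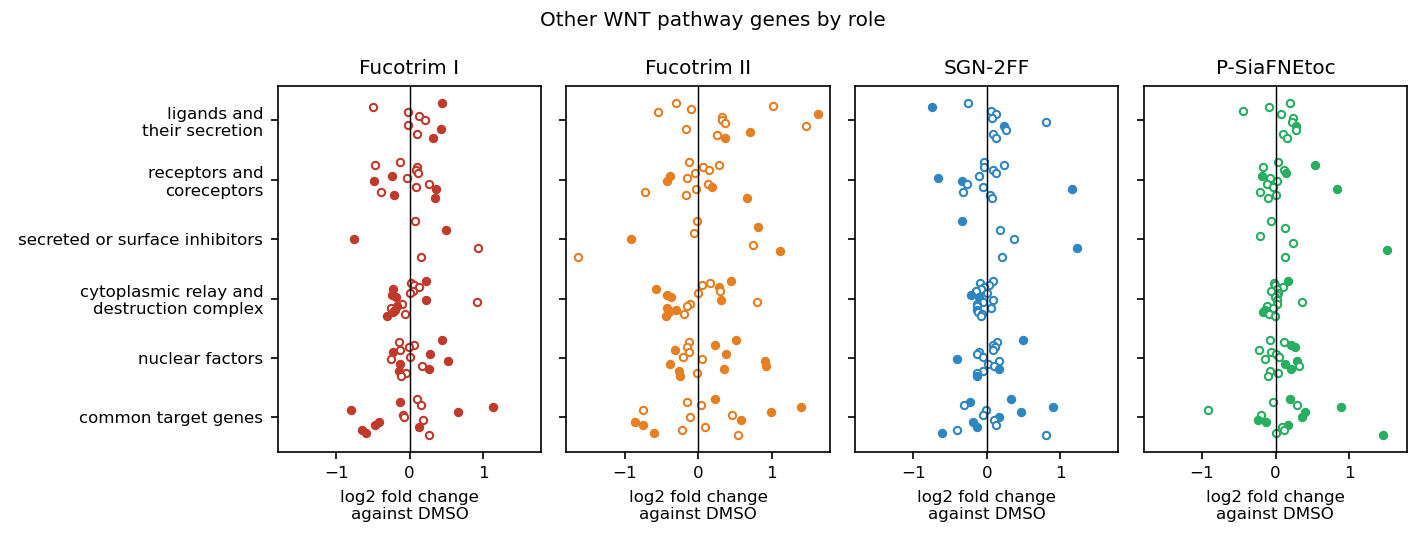
Log2 fold change against DMSO of the other WNT pathway genes tested, grouped by role, 1 panel per inhibitor; filled points passed an adjusted p of 0.05 and open points did not. Genes moved in both directions in most roles, and among the 18 relay and destruction complex genes 7 fell with each Fucotrim.

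The genes whose pattern over the 14 libraries was most like that of DKK1 were GLO1, CHPT1, SOX9, SH2D4A and CALCB, with Pearson r of log2 CPM from 0.976 to 0.983 among 11836 genes. The libraries share treatments and the 5 Fucotrim libraries stand together, so r is given as a description, with no test. CALCB went from 13.4 CPM in DMSO to 6.67 and 5.61 CPM with Fucotrim I and Fucotrim II, whereas GLO1 went from 419 to 325 and 304 CPM, a smaller relative change. For AXIN2 the likest genes were PRORSD1P, HPS4, HIVEP3, FLG-AS1 and JAK3, with r from 0.836 to 0.882.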

How the data were processed

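RNA of CWR22Rv1 cells was made into stranded mRNA libraries, and the authors, per the labels and methods, checked reads with FastQC, trimmed them with Cutadapt, ran HISAT2 against hg38 and took counts per gene from featureCounts. The deposited values are whole-number counts in 4 tables, each holding 1 inhibitor with the same 3 DMSO libraries. The annotation release, strand setting and handling of multiply mapped reads are not given in the sources used here. The authors used limma-voom.

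The filter on low counts was that of filterByExpr, with 10 as the minimum count and 15 as the minimum total. Each inhibitor was fitted alone with DMSO by edgeR 4.0.16 (robust quasi-likelihood F test, TMM scaling, R 4.3.3), with Benjamini-Hochberg adjustment over all genes and calls at an adjusted p under 0.05. Pairs of inhibitors were compared in a fit of all 14 libraries. Levels are CPM after TMM scaling over the 14 libraries, and levels per kilobase use merged GENCODE exon lengths. SE is the log2 fold change divided by the root of F, and intervals cover 95%. limma 3.58.1 (voom) and DESeq2 1.42.0 were alternatives. The code was tested on simulated data.

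The members, the pathway list and the rule for named genes were chosen with earlier results of these data known. The rule took all 10 members, and from the list the called genes averaging 50 counts or more that had, per inhibitor, the top 3 rises and top 3 falls, with CTNNB1, MYC and CCND1 always, and the 5 genes most like DKK1 and AXIN2 (pseudocount 0.5 on CPM). Values of these genes with the other inhibitors were added after they were seen. Promoters were searched over 250 bases before the start. Depth was 12553094 to 19981453 counts per library.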

Additional observations from a re-analysis of the deposited data

How the results depend on the processing

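Over 1144 alternative values of 80 log2 fold changes, 1033 kept their direction and their side of the threshold, 70 lost a call, 11 gained one and 30 changed sign. Of the 31 called, 16 lost no call and kept their sign under every alternative run, among them DKK1 with Fucotrim I (-1.54 to -1.33), Fucotrim II (-1.89 to -1.74) and P-SiaFNEtoc (0.20 to 0.30) and RNF43 with SGN-2FF (0.32 to 0.38) and P-SiaFNEtoc (0.53 to 0.61). The causes of the changes below were not tested.

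Calling at an adjusted p under 0.01, chosen after seeing the data for the members, left 1 member with Fucotrim II, 1 with SGN-2FF, 0 between the Fucotrims and 0 between SGN-2FF and P-SiaFNEtoc. In the pathway list it left 8 rises and 13 falls with Fucotrim I, 7 falls with SGN-2FF and 0 falls with P-SiaFNEtoc. DESeq2 called 1 member with SGN-2FF and 11 list rises with P-SiaFNEtoc, and limma-voom 1 member with SGN-2FF. A single fit of 14 libraries called 1 member, 5 list rises and 6 list falls with SGN-2FF, and 0 list falls with P-SiaFNEtoc. The pair alone gave 0 members between the Fucotrims. DESeq2 and the single fit also ended the calls of AXIN2 with Fucotrim I and of LEF1 with SGN-2FF and P-SiaFNEtoc, and limma-voom those of LEF1. Leaving out mitochondrially encoded genes, also chosen after seeing the data, changed no call of the 8 members tested.

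The correlation of deviations of same-numbered DMSO and treated libraries ran from -0.418 to 0.276 by the titles. For Fucotrim II the numbers in the library names differ from the titles and gave 0.418 and 0.166. With 2 Fucotrim II libraries, the deviations from their mean mirror each other. In the other groups, libraries of unlike number were not compared. These values therefore cannot decide whether the numbers pair the samples. With the replicate block by titles, 1 member was called with Fucotrim II, 1 with SGN-2FF, 1 between the Fucotrims and 0 between SGN-2FF and P-SiaFNEtoc, LGR4 with Fucotrim II turned to -0.013 and AXIN2 between SGN-2FF and P-SiaFNEtoc to 0.0047. With the block by library names, AXIN2 with Fucotrim II passed, at 0.48 (edgeR adjusted p = 0.0173). ZNRF3 with P-SiaFNEtoc turned to -0.00067 with no filter on low counts and to -0.0013 in the single fit.

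Leaving out 1 library at a time, where a Fucotrim II arm of 1 library is assumed to vary like the other groups, the members called ran from 1 to 2 with SGN-2FF, from 2 to 5 with Fucotrim II, 1 to 2 between the Fucotrims and 0 to 1 between SGN-2FF and P-SiaFNEtoc. The list falls ran from 13 to 19 with Fucotrim I, 7 to 14 with SGN-2FF and 1 to 4 with P-SiaFNEtoc, and the list rises from 5 to 10 with SGN-2FF and from 12 to 26 with Fucotrim II. The log2 fold changes that changed sign had all missed the threshold. With Fucotrim I, TCF7 ran from -0.066 to 0.15 and ZNRF3 from -0.075 to 0.060, and with Fucotrim II LGR4 from -0.17 to 0.28. With SGN-2FF, DKK1 ran from -0.11 to 0.016, TCF7 from -0.15 to 0.0012 and LRP6 from -0.075 to 0.020. With P-SiaFNEtoc, AXIN2 ran from -0.026 to 0.23 and ZNRF3 from -0.024 to 0.043. Between the Fucotrims, AXIN2 ran from -0.30 to 0.23 and TCF7 from -0.19 to 0.031, and ZNRF3 between Fucotrim I and P-SiaFNEtoc from -0.080 to 0.054. LGR4 between Fucotrim II and SGN-2FF ran from -0.28 to 0.18, and between Fucotrim II and P-SiaFNEtoc from -0.33 to 0.13. Between SGN-2FF and P-SiaFNEtoc, AXIN2 ran from -0.15 to 0.11, LEF1 from -0.057 to 0.016 and LGR4 from -0.12 to 0.026. Plain library totals moved 9 of 50 mean levels by more than 1 SD. Counts of 0 to 4 left DKK3 and NKD1 beyond a test at this depth.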
